A study of Mus musculus with 10 samples.

Results

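Nes, Vim, Plec, Dst and Macf1 encode the intermediate filament proteins nestin and vimentin and the cytolinkers plectin, dystonin and MACF1, and they are 5 of the 57010 gene identifiers in the expression table of these macrophages. The 5 genes were found by their symbols, and each matched 1 identifier. All 5 were proposed with earlier results of these data known, so that no comparison is sure to be independent of the choice. Vim, Plec and Macf1 are relatives of Nes and Dst by function. The genotype comparison in unconfined cells is taken as the one that chose Nes and Dst. The level of Nes, Dst and the others in that comparison is therefore given as a description, without a test. RNA sequencing had been carried out on 10 libraries of bone marrow-derived macrophages, which are grown in culture from marrow precursors. Femoral marrow came from wild-type mice (WT) or from WASp knockout mice (WKO) and was kept in culture over 7 days in the presence of 20 ng/mL recombinant mouse M-CSF, the growth factor that drives macrophage differentiation. WASp, the product of Was, activates branched actin assembly in blood cells. There were 2 libraries of unconfined WT cells, 2 of unconfined WKO cells, 3 of WT cells and 3 of WKO cells held for 1 h under PDMS micropillars at a height of 3 µm. The knockout allele, the strain, the age of the mice and any pooling are not given in the sources used here, nor whether unconfined cells were handled in the device, so that confinement and handling cannot be told apart. Nothing in the labels says that libraries of a group came from separate mice or cultures, and p-values then measure only the spread between these libraries.

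Intermediate filaments are the third filament system of animal cells beside actin and microtubules, and they give cells and nuclei resistance to large deformation. Vimentin is the main filament protein of mesenchymal cells and leukocytes. Nestin does not form filaments on its own but joins those of vimentin, and it is best known from neural progenitors, perivascular cells and regenerating tissue. Plectin, dystonin and MACF1 are plakins, very large proteins that tie filaments to each other: plectin binds intermediate filaments, actin and the nuclear envelope, while dystonin and MACF1 also bind microtubules.

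The genes lie on 5 chromosomes (GENCODE M21, GRCm38). Nes occupies chr3:87971078-87980451 on the plus strand and Vim chr2:13573927-13582826 on the plus strand. Plec lies at chr15:76170974-76232574 on the minus strand, Dst at chr1:33908225-34308661 on the plus strand and Macf1 at chr4:123349633-123684360 on the minus strand. Their longest transcripts measure 6126 bases for Nes, 2926 for Vim, 15455 for Plec, 23279 for Dst and 23495 for Macf1. RefSeq promoters (GRCm38.p6, 250 bases before to 50 bases after the start) matched 4 of the 5 genes. Those of Nes and Dst are shown because both genes passed between genotypes in confined cells, and that of Vim as the filament gene nestin joins. Capitals mark, on either strand, the CCAAT box (CCAAT), the GC box (GGGCGG) and TATAA. The regions are chr3:87970843-87971142 (plus) for Nes, chr2:13574061-13574360 (plus) for Vim, and chr1:34011345-34011644 and chr1:34160010-34160309 (both plus) for the first and second Dst promoter.
Nes promoter: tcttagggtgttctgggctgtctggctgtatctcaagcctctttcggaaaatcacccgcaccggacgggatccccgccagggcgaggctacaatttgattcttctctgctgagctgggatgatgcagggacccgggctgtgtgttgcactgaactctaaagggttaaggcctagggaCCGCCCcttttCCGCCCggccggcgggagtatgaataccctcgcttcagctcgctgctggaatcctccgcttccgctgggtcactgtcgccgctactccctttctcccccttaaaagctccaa
Vim promoter: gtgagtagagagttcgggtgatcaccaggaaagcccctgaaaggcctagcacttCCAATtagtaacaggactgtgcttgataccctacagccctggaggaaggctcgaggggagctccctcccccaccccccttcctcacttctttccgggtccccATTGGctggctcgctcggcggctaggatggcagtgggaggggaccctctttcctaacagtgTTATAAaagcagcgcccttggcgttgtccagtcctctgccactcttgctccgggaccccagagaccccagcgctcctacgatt
Dst promoter 1: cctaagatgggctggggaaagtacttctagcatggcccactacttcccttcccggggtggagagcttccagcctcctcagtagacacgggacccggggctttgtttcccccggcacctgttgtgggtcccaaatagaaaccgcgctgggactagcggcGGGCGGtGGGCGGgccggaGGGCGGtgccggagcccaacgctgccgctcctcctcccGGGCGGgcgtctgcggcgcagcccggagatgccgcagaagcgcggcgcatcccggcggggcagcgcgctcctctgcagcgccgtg
Dst promoter 2: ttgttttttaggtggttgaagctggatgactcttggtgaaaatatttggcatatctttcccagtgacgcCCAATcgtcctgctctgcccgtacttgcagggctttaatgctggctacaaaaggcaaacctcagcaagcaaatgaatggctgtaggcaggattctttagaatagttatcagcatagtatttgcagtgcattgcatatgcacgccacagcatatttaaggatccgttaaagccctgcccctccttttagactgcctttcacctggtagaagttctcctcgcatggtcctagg

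The Nes and Vim promoters held different motifs. Nes had 2 GC boxes, beginning 73 and 62 bases before the start, and neither a CCAAT box nor TATAA. Vim had 2 CCAAT boxes, 196 and 94 bases before the start, and 2 matches to TATAA, 33 and 32 bases before it, which overlap on opposite strands. The first Dst promoter had 4 GC boxes, and the second, which lies farther along the gene, had 1 CCAAT box. Of 32851 RefSeq promoters of the same length, 37.4% held CCAAT, 35.7% GGGCGG and 24.9% TATAA. The AP-1 site (TGANTCA, in 7.81% of promoters), the hypoxia response core (ACGTG, 19.6%) and the CArG box (1.63%) were searched on both strands too, and none was found in the 5 promoters that matched. These matches describe the letters only. The Macf1 promoter held 1 TATAA.

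Depth ranged from 13295701 to 19329908 reads per library, and 3 reads, taken as the detection floor, corresponded to between 2.35 and 3.59 normalized read counts, which covers counting error only. Every member stood far above that floor in every library. Was had 1474 ± 234 normalized read counts (SD, n = 2) in unconfined WT cells and 148 ± 8.82 (n = 2) in unconfined WKO cells, and 1612 ± 40.1 (n = 3) and 107 ± 15.5 (n = 3) in confined cells, so that each library matched its genotype label. All 10 macrophage markers were present, with a summed level of 187070 to 215810 normalized read counts in the WT libraries. In the WKO libraries it was higher, at 249300 to 322040. Markers of other cells moved with genotype too. The summed level of 18 stromal markers was 1132 to 2319 in unconfined WT, 3302 to 3942 in unconfined WKO, 329 to 1101 in confined WT and 1321 to 13750 in confined WKO libraries. Confined WKO replicate 5 stood apart, with the highest value of 17 of these 18 markers. Member and partner results that rest on it are given with and without it, and marker counts only with it. The 10 neutrophil and progenitor markers summed to 6891 to 10837, 24792 to 29830, 2545 to 7933 and 6971 to 27924 in the same order of groups, and the 7 B cell markers to 1044 to 1048, 5180 to 5474, 419 to 868 and 1794 to 6534. In bulk RNA, fewer cells of a type and less RNA per cell cannot be told apart.

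Values below are normalized read counts, that is, reads divided by 1 factor per library. A difference is in log2(normalized read count + 1), WKO minus WT or confined minus unconfined, with its SE and 95% interval from a limma fit to all 10 libraries. A call means a Benjamini-Hochberg adjusted p under 0.05 over the 12455 genes tested, which include all 5 members. Whether groups overlap is given as a description, since the share of all genes whose groups do not overlap was not counted.

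Nes, the filament gene of progenitors, was lower in WKO than in WT macrophages in both conditions. In unconfined WT cells it had 1841 and 1582 normalized read counts, and in unconfined WKO cells 511 and 478. The groups were far apart, with a difference of -1.79 (SE 0.173, 95% interval -2.16 to -1.41). This comparison is taken as the one that chose the gene and is not tested. In confined WT cells Nes had 2315, 2324 and 2027, and in confined WKO cells 450, 631 and 459. The lowest confined WT library thus lay far above the highest confined WKO library, replicate 2. The means were 2222 ± 169 (SD, n = 3) and 513 ± 102 (n = 3), and the difference was -2.13 (SE 0.141, 95% interval -2.43 to -1.82, limma adjusted p 2.95e-05), a level in WKO cells of 23.1% of that in WT cells. Without confined WKO replicate 5 it was -2.05 (limma adjusted p 1.66e-05). In all 24 alternative settings the call held, with differences between -2.28 and -1.90.

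The level of Nes ran against that of the stromal markers across libraries. It was highest in confined WT replicates 2 and 3, where the stromal sum was lowest (329 and 332). Unconfined WT replicate 3 had a higher stromal sum (2319) than confined WKO replicate 2 (1321), and its Nes level was 1582 against 631. Among the 8 neural and Schwann cell markers Sox1 was at 0 in all libraries, and the sum ranged from 3.52 to 30.6 normalized read counts. The endothelial markers summed to between 1902 and 3892, most of it Vwf, the clotting factor carrier of endothelial cells and megakaryocytes. Vwf had 3096 ± 752 (SD, n = 3) in confined WT and 2066 ± 143 (n = 3) in confined WKO cells. Most other endothelial markers went the other way. Of the 4 tested, 3 were higher in confined WKO than in confined WT cells, with a median difference of 0.48. Of these limma called 1 higher, where 2.59% of all genes were called. Pecam1 had means of 21.2 in confined WT and 74.6 in confined WKO cells, and Cdh5 of 11.1 and 23.5. Kdr was nearly equal, with 73.8 and 76.7. The part of endothelial cells in the Nes difference was not tested.

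Confinement moved Nes little beside the genotype difference. In WT cells the confined libraries (2027 to 2324) lay above both unconfined ones (1582 and 1841), with a difference of 0.38 (SE 0.158, 95% interval 0.03 to 0.72, limma adjusted p 0.360) that did not pass. In WKO cells the groups overlapped and the difference was 0.04 (95% interval -0.31 to 0.38, limma adjusted p 0.942). The difference between these responses was -0.34 (95% interval -0.83 to 0.15, limma adjusted p 0.999), so that unlike responses of the genotypes were not shown. These comparisons share the unconfined libraries that chose Nes and Dst.

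Vim, the gene of the main filament protein, was the most abundant member. It had 43136 and 41669 normalized read counts in unconfined WT cells and 30887 and 31500 in unconfined WKO cells. Both WKO libraries were lower, with a difference of -0.44 (SE 0.139, 95% interval -0.75 to -0.14). It is given as a description because this comparison is taken as the one used in choosing genes. In confined cells the WT libraries had 46073, 45580 and 48305, and the WKO libraries 42328, 32989 and 42507. The highest WKO library was below the lowest WT library, but WKO replicate 2 stood well below the other two. The difference was -0.26 (SE 0.113, 95% interval -0.51 to -0.01, unadjusted limma p 0.0424, adjusted p 0.276) and did not pass over all genes. The size rested in part on WKO replicate 2, without which it was -0.14 (limma adjusted p 0.542). With limma's library weights it was -0.44 and passed (limma adjusted p 0.00370).

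Vim in confined cells lay above Vim in unconfined cells in each genotype without passing the test. In WT cells the difference was 0.14 (SE 0.127, 95% interval -0.14 to 0.41, limma adjusted p 0.719). In WKO cells it was 0.32 (SE 0.127, 95% interval 0.05 to 0.60, limma adjusted p 0.275), and the lowest confined library (32989) was just above the highest unconfined one (31500). With the library weights this difference was 0.13 (limma adjusted p 0.363). The interaction was 0.19 (95% interval -0.21 to 0.58, limma adjusted p 0.999).

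**Figure D1:**
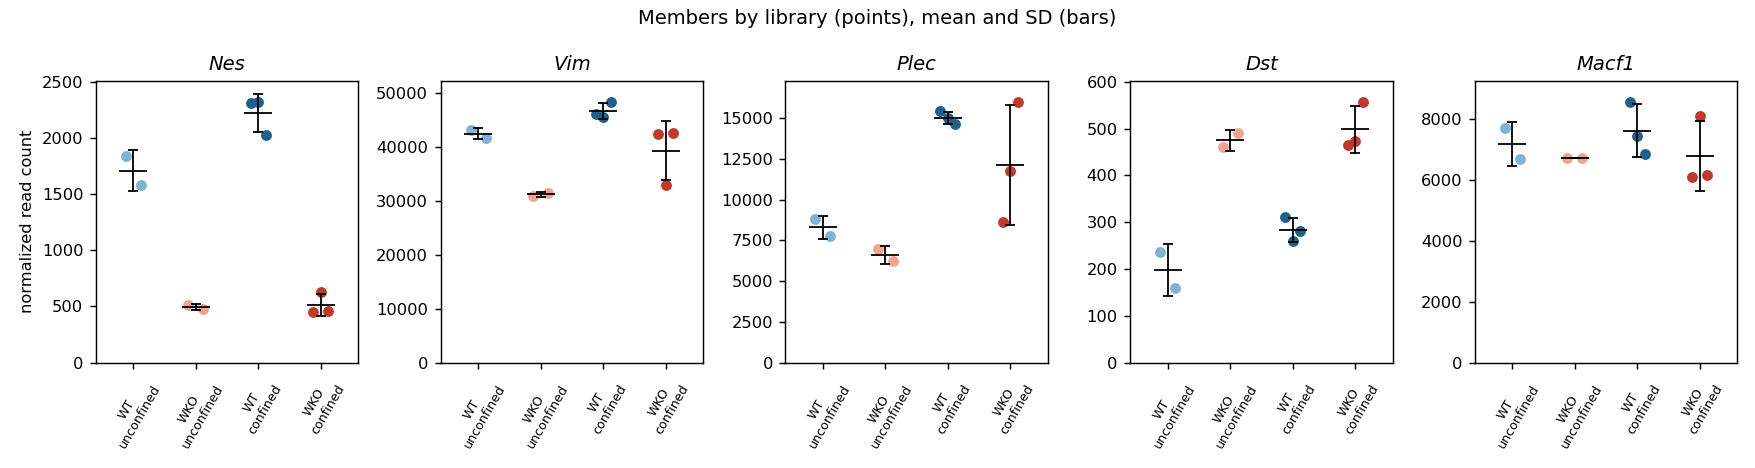
Normalized read count (vertical axes, from 0, 1 scale per gene) of Nes, Vim, Plec, Dst and Macf1 in each library (points) by group, with the group mean (long horizontal line) and SD (error bars), n = 2 for unconfined and n = 3 for confined groups. Nes is low and Dst high in WKO libraries of both conditions, Plec is spread from 8639 to 15996 in confined WKO libraries, and the Macf1 groups overlap.

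Per kilobase of the longest transcript, which allows genes to be compared, Vim was the highest of the 5 in every group, with means of 14492 normalized read counts per kilobase in unconfined WT, 10661 in unconfined WKO, 15944 in confined WT and 13423 in confined WKO cells. Plec came next, with 537, 427, 972 and 785 in the same order. Macf1 had 305, 286, 323 and 288, and Dst was the lowest, with 8.50, 20.4, 12.2 and 21.4. The place of Nes differed by genotype: its means were 279 and 363 per kilobase in unconfined and confined WT cells, where its range overlapped that of Macf1, and 80.7 and 83.8 in WKO cells, where every library was below every Macf1 value. Nes thus amounted to 1.93 per 100 Vim in unconfined WT and 2.28 in confined WT cells, and to 0.758 and 0.646 in unconfined and confined WKO cells, each per kilobase. Within a library this ratio was between 1.81 and 2.44 in WT and between 0.508 and 0.913 in WKO cells. These ranges include the unconfined libraries that chose Nes, so the ratio is a description. In confined cells alone it was 2.00 to 2.44 in WT and 0.508 to 0.913 in WKO libraries.

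Plec, whose product ties vimentin filaments to actin and the nuclear envelope, was the member that differed most with confinement. In WT cells it had 8806 and 7796 normalized read counts unconfined and 15410, 15003 and 14643 confined. The confined WT libraries lay close together and far above the unconfined ones. The difference was 0.86 (SE 0.195, 95% interval 0.43 to 1.28, unadjusted limma p 0.000922), with an adjusted p of 0.0660 that missed the threshold. In WKO cells it had 6990 and 6222 unconfined and 8639, 11781 and 15996 confined. All confined libraries were higher, but they ranged nearly from the unconfined WT level to above the confined WT level, with replicate 1 lowest and replicate 5 highest. The difference was 0.83 (SE 0.195, 95% interval 0.41 to 1.26, limma adjusted p 0.0585).

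Averaged over both genotypes, a comparison added after the separate values had been seen, Plec rose by 0.85 (SE 0.138, 95% interval 0.54 to 1.15, limma adjusted p 0.00406), or 1.80-fold. The call held in all 23 alternatives run, with adjusted p between 1.33e-07 and 0.0360. Without confined WKO replicate 5 the rise was 0.74 (limma adjusted p 0.000331). Without that library the separate differences passed as well, with 0.86 (limma adjusted p 0.00187) in WT and 0.61 (limma adjusted p 0.0421) in WKO cells. They also passed without confined WKO replicate 1, with 0.86 (limma adjusted p 0.00659) in WT and 1.06 (limma adjusted p 0.00270) in WKO cells. The interaction was -0.02 (95% interval -0.63 to 0.58, limma adjusted p 0.999), an interval too wide to show that the genotypes respond alike. The stromal sum did not move one way with confinement: it was lower in each confined WT library than in both unconfined ones, and in confined WKO libraries 1321, 4430 and 13750 for replicates 2, 1 and 5, against 3302 and 3942 unconfined. Plec was higher in confined WT cells where stromal markers were lower, and in confined WKO cells it was highest in the library with the highest stromal sum, whose part in the spread was not tested. The neutrophil and progenitor sum and the B cell sum had lower group means in confined than in unconfined cells of each genotype. Their libraries overlapped except for B cell markers in WT cells. In WKO cells the B cell sum was 6534, 4443 and 1794 in confined replicates 1, 2 and 5, against 5474 and 5180 unconfined. The neutrophil and progenitor sum was 21660, 27924 and 6971 there, against 29830 and 24792. Of the 10 neutrophil and progenitor markers 0 had a difference above 0 in either genotype, with medians of -1.39 in WT and -1.14 in WKO cells. Of the 5 B cell markers tested 0 were above 0 in either genotype. Their part in the Plec difference was not tested.

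Between genotypes Plec was somewhat lower in WKO cells. The unconfined difference, given as a description, was -0.33 (SE 0.214, 95% interval -0.80 to 0.14). In confined cells the ranges overlapped because of WKO replicate 5, and the difference was -0.35 (SE 0.175, 95% interval -0.73 to 0.03, limma adjusted p 0.342). Without that library it was -0.57 and passed (limma adjusted p 0.0265), without WKO replicate 1 it was -0.13 (limma adjusted p 0.569), and with limma's library weights it was -0.35 and passed (limma adjusted p 0.0252). Plec shares 205 exon bases (1.13% of its exons) with Parp10 on the same strand, whose mean was 397 normalized read counts.

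Dst, a spectraplakin gene with neuronal, muscle and epithelial forms, was higher in WKO than in WT cells. In unconfined cells it had 237 and 159 normalized read counts in WT and 460 and 491 in WKO libraries. The WKO values stood clear of both WT values, with a difference of 1.29 (SE 0.203, 95% interval 0.84 to 1.73). This difference is taken as what chose the gene and is not tested. In confined cells it had 311, 259 and 282 in WT and 465, 473 and 557 in WKO libraries. The groups did not overlap, and WKO replicate 5 was the highest. The means were 284 ± 25.8 (SD, n = 3) and 498 ± 51.1 (n = 3), and the difference was 0.81 (SE 0.166, 95% interval 0.45 to 1.17, limma adjusted p 0.0272).

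The call for Dst in confined cells was close to the threshold. Without WKO replicate 5 the difference was 0.73 (limma adjusted p 0.0456). Leaving out any of 6 other libraries ended the call, with a difference between 0.74 and 0.87. The limma adjusted p was 0.0530 and 0.0536 without unconfined WKO replicate 1 or 3, 0.0680, 0.111 and 0.0883 without confined WT replicate 2, 3 or 6, and 0.0536 without confined WKO replicate 2. It was 0.0764 without the mean-variance trend and 0.05002, just above the threshold, with only the confined libraries in the fit. Dst and the stromal sum both had higher means in WKO than in WT groups, and both were highest in confined WKO replicate 5 (557 and 13750). Unconfined WT replicate 3 had a stromal sum of 2319 and a Dst level of 159, and confined WKO replicate 2 had 1321 and 473. The part of stromal cells in the Dst difference was not tested. Counts per gene do not separate the forms of Dst. Its exons overlap those of the antisense gene Gm26788 over 1037 bases (2.52%), and 573 bases (2.46%) of its longest transcript match Gfer, and the use of strand in counting is not given in the sources used here. Gm26788 had a mean of 0.713 normalized read counts and Gfer one of 152.

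The effect of confinement on Dst did not pass in either genotype. In WT cells all 3 confined libraries (259 to 311) were above both unconfined ones (159 and 237), with a difference of 0.54 (SE 0.185, 95% interval 0.14 to 0.95, limma adjusted p 0.238). It was 0.83 (limma adjusted p 0.161) without unconfined WT replicate 1 and 0.26 (limma adjusted p 0.774) without unconfined WT replicate 3. In WKO cells the groups overlapped, with a difference of 0.06 (95% interval -0.34 to 0.47, limma adjusted p 0.913). The interaction was -0.48 (95% interval -1.05 to 0.09, unadjusted limma p 0.0928, adjusted p 0.999), and -0.76 and -0.20 without these 2 libraries in turn.

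Macf1, the gene of the other spectraplakin, differed by less than the spread between replicates in every comparison. It had 7674 and 6661 normalized read counts in unconfined WT, 6714 and 6708 in unconfined WKO, 8545, 7413 and 6839 in confined WT, and 6069, 8079 and 6155 in confined WKO cells. The ranges overlapped in each comparison. The unconfined genotype difference was -0.09 (95% interval -0.44 to 0.25), a description. In confined cells the genotype difference was -0.17 (95% interval -0.45 to 0.11, limma adjusted p 0.554). For confinement it was 0.08 (95% interval -0.23 to 0.40, limma adjusted p 0.871) in WT cells. In WKO cells the 95% interval ran from -0.31 to 0.31 (limma adjusted p 0.999). The interaction was -0.08 (95% interval -0.53 to 0.36, limma adjusted p 0.999). Per kilobase, Dst amounted to between 2.41 and 4.16 per 100 of the related gene Macf1 in the WT libraries. In the WKO libraries it was between 5.91 and 9.14. With all annotated exons as the length these ranges were 1.83 to 3.15 and 4.46 to 6.91. They include the unconfined libraries that chose Dst, so the ratio is a description. In confined cells alone it was 3.53 to 4.16 in WT and 5.91 to 9.14 in WKO libraries, by the longest transcript.

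**Figure D2:**
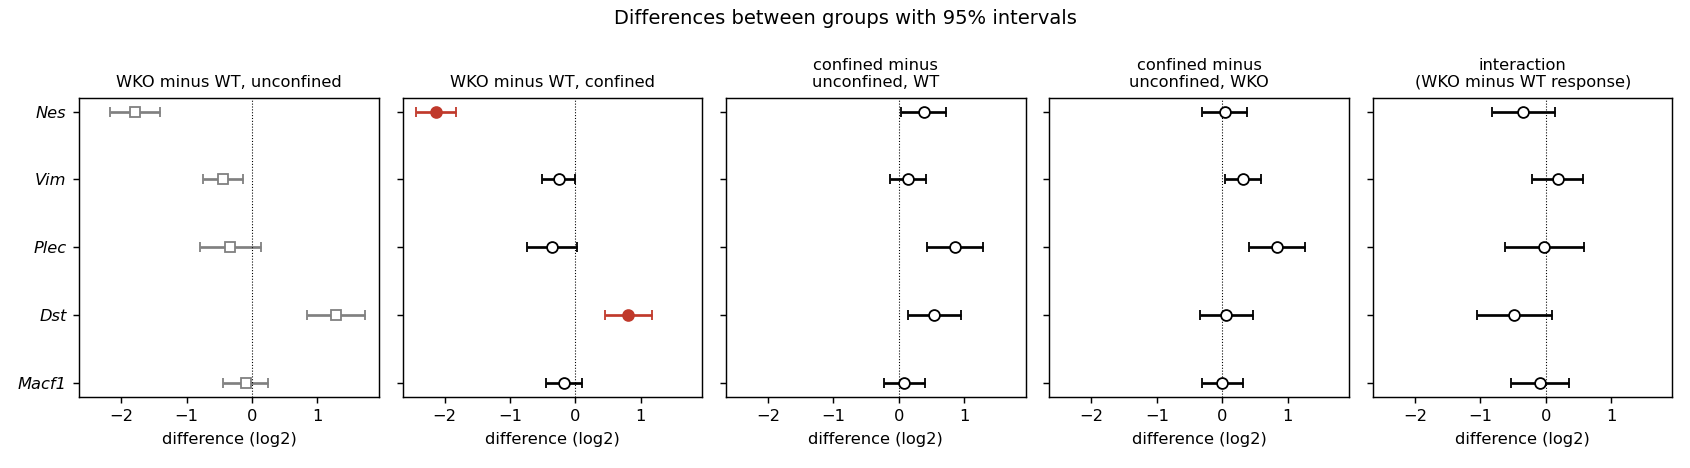
Difference in log2(normalized read count + 1) (horizontal axes) for each of the 5 genes in each comparison, with 95% intervals from the limma fit and a dotted line at 0. Grey squares are the unconfined genotype comparison, shown as a description, and filled red circles have a limma adjusted p under 0.05: Nes and Dst in the confined genotype comparison, at -2.13 and 0.81.

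No count of called members is given between genotypes in unconfined cells, since that comparison is taken as the one that chose Nes and Dst. There limma called 0.145% of all tested genes. In confined cells 2 of 5 were called, Nes lower and Dst higher, against 2.59% of all genes. The same number was called by edgeR and by DESeq2. Both genes are taken as chosen by their genotype difference in unconfined cells, so that this count is not independent of the choice. With only the confined libraries in the fit the count was 1. For confinement, limma called 0 of 5 in WT cells (background 1.16%) and 0 of 5 in WKO cells (background 1.72%). At an unadjusted limma p under 0.05 there were 3 in WT and 2 in WKO cells, against 12.2% and 14.1% of all genes. In each genotype edgeR called 0 and DESeq2 called 1. The shares of all genes given here are those of limma. The interaction had 0 of 5 called by limma, edgeR and DESeq2, with 0% of all genes called by limma. At an unadjusted limma p under 0.05 it had 0 of 5, against 2.07% of all genes. Averaged over the genotypes, 1 of 5, Plec, was called as higher in confined cells, against 6.21% of all genes.

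Other long transcripts were compared because 3 of the members are among the longest. The 49 tested genes with a longest transcript of at least 15 kb, which include Plec, Dst and Macf1, had a median difference of 0.07 between genotypes in unconfined and -0.04 in confined cells, and of 0.11 and 0.06 with confinement in WT and WKO cells. The medians of all tested genes were 0.00, 0.00, -0.01 and -0.01. Averaged over the genotypes, 33 of the 49 were above 0 with a median of 0.08, and 7 were called, against 6.21% of all genes. The 282 genes of at least 10 kb had medians of 0.15 and 0.10 with confinement in WT and WKO cells, with 193 and 177 above 0, and 26 were called in the average.

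Vim was by far the most abundant cytoplasmic filament gene in these libraries. Of 23 besides Nes and Vim, only Iffo1, Iffo2 and Krt80 reached a mean of 10. Iffo1 and Iffo2 encode intermediate filament family orphans and Krt80 a keratin. Their means over all libraries were 503, 276 and 61.9 normalized read counts. Iffo1 was below Nes in WT groups (540 unconfined and 412 confined) but close to or above it in WKO groups (612 and 498, against 495 and 513 for Nes). Averaged over the genotypes or within them, limma called 0 of these 3 with confinement, and 0 between genotypes in confined cells or in the interaction. Averaged over the genotypes, 2 of the 3 had an unadjusted limma p under 0.05 with confinement, against 21.6% of all genes. In that average DESeq2 called 1 and edgeR 0. In confined cells 0 of the 3 differed between genotypes by either tool or at an unadjusted limma p under 0.05, which 16.8% of all genes had. Iffo2 with confinement came nearest, at 0.51 averaged over the genotypes (95% interval 0.18 to 0.85, limma adjusted p 0.0742), beside -0.35 for Iffo1 (limma adjusted p 0.0977) in that comparison. Iffo1 overlaps the abundant gene Gapdh over 68 exon bases on the other strand. Des, the muscle filament gene, had at most 23 reads in a library, Nefh of neurons at most 22 and Krt10 of skin at most 11. Nefm, Bfsp2, Krt8, Krt14, Krt17 and Krt20 were at 0 reads in all libraries, which leaves levels below about 3.59 normalized read counts per library undetected. The other plakins searched were near 0 too: Dsp of desmosomes had at most 10 reads, Ppl at most 3 and Evpl 0 in every library. Eppk1 was not matched by symbol.

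Of 30 genes whose products link filaments and plakins to the nucleus, membrane, actin and microtubules, 27 were tested. Between genotypes in confined cells 3 were lower in WKO cells and none was called higher by limma, where 2.59% of all genes were called, and the median over the 27 was -0.07 against 0.00 over all genes. The count of 3 ranged from 0 to 8 over the alternatives. Flna, the actin crosslinker filamin A that binds vimentin, had 38824, 35297 and 35679 normalized read counts in confined WT and 24259, 25393 and 19396 in confined WKO cells. The groups stood well apart, and Flna fell by 0.68 on the log2 scale (SE 0.121, limma adjusted p 0.0160). Actn1, the actin crosslinker alpha-actinin 1, fell by 0.50 (SE 0.103, limma adjusted p 0.0270) from 5975 ± 447 to 4213 ± 363 (SD, n = 3 each). Clip2, a microtubule plus-end protein, fell by 0.44 (SE 0.104, limma adjusted p 0.0464) from 1102 ± 27.9 to 811 ± 41.1 (n = 3 each). Without confined WKO replicate 5 these were -0.56 (limma adjusted p 0.0125) for Flna, -0.49 (0.0304) for Actn1 and -0.42 (0.0699) for Clip2. The call for Actn1 was lost without any 1 of the 6 libraries that ended that of Dst (unconfined WKO replicates 1 and 3, confined WT replicates 2, 3 and 6, confined WKO replicate 2), with limma adjusted p up to 0.110. That for Clip2 was lost without any 1 library other than confined WKO replicate 1, with limma adjusted p up to 0.163. That for Flna was lost without confined WT replicate 2 (-0.63, limma adjusted p 0.0768) or replicate 3 (-0.70, limma adjusted p 0.0666).

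With confinement 1 of the 27 partners passed in each genotype, where 1.16% and 1.72% of all genes were called in WT and WKO cells. This was Gas2l3, whose product crosslinks actin and microtubules through the domain it shares with dystonin and MACF1. It had 1414 and 1227 normalized read counts in unconfined WT and 2503, 2609 and 2891 in confined WT cells. In WKO cells it had 1239 and 1360 unconfined and 1766, 2916 and 3240 confined. Every confined library was above every unconfined library of either genotype, and confined WKO replicate 1 was the lowest of them, as for Plec. Gas2l3 rose by 1.01 in WT (SE 0.209, limma adjusted p 0.0417) and by 0.98 in WKO cells (SE 0.209, limma adjusted p 0.0391). Leaving out any 1 library other than confined WKO replicates 1 and 5 ended each of these calls, with limma adjusted p up to 0.329 in WT and 0.336 in WKO cells. In WT cells edgeR gave an adjusted p of 0.0533. The medians over the 27 partners were 0.18 in WT and 0.13 in WKO cells, against -0.01 for all genes in each, and 24 and 17 of the 27 were above 0. Averaged over the genotypes the rise of Gas2l3 was 1.00 (SE 0.148, limma adjusted p 0.00244), and it passed in all 23 alternatives. A stretch of at most 208 bases of its longest transcript matches transcripts of many other genes, which leaves a small share of its count uncertain.

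In that average 5 of the 27 partners rose, where 6.21% of all genes were called, and edgeR and DESeq2 also called 5, with a median of 0.16 against -0.02 for all genes. Besides Gas2l3 these were Ahnak, a giant protein under the plasma membrane (0.82, limma adjusted p 0.0415), and Camsap2, which holds microtubule minus ends (0.51, limma adjusted p 0.0462). Syne3, the gene of nesprin-3, which binds plectin at the outer nuclear membrane, rose by 0.45 (limma adjusted p 0.0425), and Clip1, a microtubule plus-end protein, by 0.37 (limma adjusted p 0.0415). Syne3 had 530 ± 105 (SD, n = 2) and 508 ± 5.59 (n = 2) normalized read counts in unconfined WT and WKO cells, and 806 ± 125 (n = 3) and 625 ± 47.6 (n = 3) in confined ones. Ahnak in confined WKO cells had 11461, 19553 and 30626 in replicates 1, 2 and 5, the same order as Plec. The calls of Ahnak and Camsap2 were lost without any 1 library other than confined WKO replicates 1 and 5, with limma adjusted p up to 0.173 and 0.1501. That of Clip1 was lost without any 1 of these except unconfined WT replicate 1, with limma adjusted p up to 0.172. That of Syne3 was lost without unconfined WT replicate 3, either unconfined WKO library, confined WT replicate 3 or 6, or confined WKO replicate 2, with limma adjusted p up to 0.173. The count of 5 was 1 without any 1 of 6 libraries (unconfined WT replicate 3, unconfined WKO replicates 1 and 3, confined WT replicates 3 and 6, confined WKO replicate 2), and 9 without confined WKO replicate 1. Over all genes, fits without 1 library called up to 1807 in that average, against 773 in the main fit. The 6.21% is therefore no background for the 9. Without confined WKO replicate 5 Ahnak, Camsap2, Syne3 and Clip1 were all called, with Ahnak at 0.65 (limma adjusted p 0.0148). The interaction had 0 of 27 called by limma, edgeR and DESeq2, and 0 with an unadjusted limma p under 0.05, against 2.07% of all genes.

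**Figure D3:**
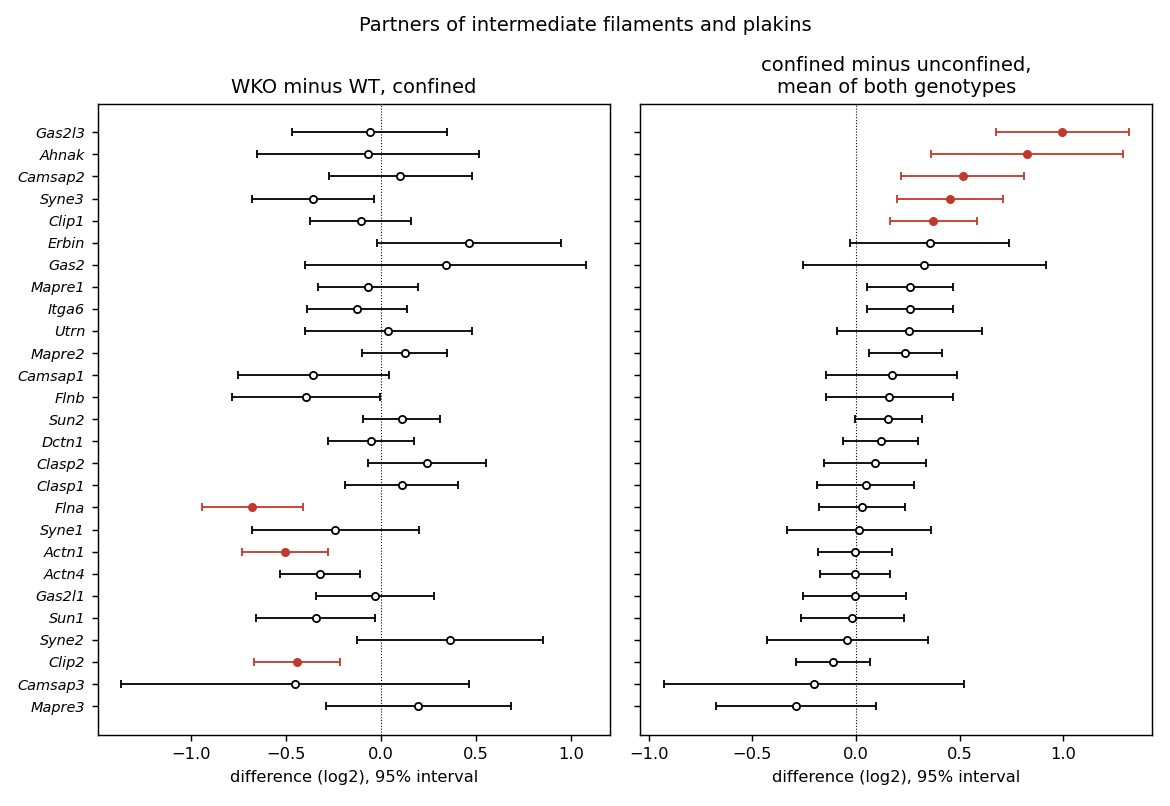
Differences in log2(normalized read count + 1) with 95% intervals (horizontal axes, dotted line at 0) for the 27 tested partners of filaments and plakins, between genotypes in confined cells (left) and with confinement averaged over both genotypes (right). Filled red points have a limma adjusted p under 0.05: Flna, Actn1 and Clip2 on the left, all below 0, and Gas2l3, Ahnak, Camsap2, Syne3 and Clip1 on the right, all above 0.

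All 31 genes of kinases, proteases, chaperones and turnover factors that act on filaments were tested, and 1 passed in each of the confined genotype and averaged confinement comparisons, where 2.59% and 6.21% of all genes were called. In the former edgeR called 1 and DESeq2 3, and in the latter 2 and 5. At an unadjusted limma p under 0.05 there were 7 and 11, against 16.8% and 21.6% of all genes. Without confined WKO replicate 1 the averaged count was 13. Over all genes, fits without 1 library called up to 1807 in that comparison, against 773 in the main fit. The 6.21% belongs to the main fit and is no background for the 13. Capn2, the protease calpain 2, was lower in confined WKO cells, with a difference of -0.44 (SE 0.0939, limma adjusted p 0.0327), from 5279 ± 478 to 3887 ± 188 normalized read counts (SD, n = 3 each). Trim32, a ubiquitin ligase that marks desmin for breakdown, fell with confinement, with a difference of -0.61 averaged over the genotypes (SE 0.141, limma adjusted p 0.0275). The call of Capn2 was lost without either unconfined WKO library, any confined WT library or confined WKO replicate 2, with limma adjusted p up to 0.134. That of Trim32 was lost without unconfined WT replicate 1, either unconfined WKO library or any confined WT library, with limma adjusted p up to 0.121. Capn2 overlaps the antisense gene Gm37885 over 1717 exon bases (27.1%), which had a mean of 2.34 normalized read counts. The medians over the 31 genes were 0.01 and 0.13 in these comparisons. With confinement limma called 0 of the 31 in WT and 0 in WKO cells, where 1.16% and 1.72% of all genes were called. At an unadjusted limma p under 0.05 there were 3 and 7, against 12.2% and 14.1% of all genes. In those comparisons edgeR called 0 in each, and DESeq2 1 and 0.

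The genes whose log2 levels ran most like those of each member over the 10 libraries were listed by Pearson correlation among 10216 genes, as a description. The points share libraries, depth and groups. For Nes they were Chst11 (r = 0.976), Was itself (0.973) and Gm20056 (0.969). Chst11, a chondroitin sulfotransferase gene, had group means of 2407 and 991 in unconfined WT and WKO cells and 2846 and 1047 in confined ones. For Dst they were Tgfbr2, a TGF-beta receptor gene (0.964), Gas6, a ligand of receptors for dead-cell uptake (0.958), and Fcrl1 (0.955), each with higher means in WKO than in WT groups. For Plec they were Entpd7 (0.985), Septin11, a septin filament gene (0.981), and Ccdc6 (0.973), each with higher means in confined groups. Vim ran with Map3k6 (0.973), Uso1 (0.952) and Letm1 (0.948), and Macf1 with Prune1 (0.935), Spata5 (0.893) and Herc2 (0.888).

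Of the 18 stromal markers 15 were tested, and 8 of them were higher in confined WKO than in confined WT cells by limma, with all 15 above 0 and a median of 3.32. In unconfined cells all 15 were above 0 with a median of 1.49. The sign of the Dst difference was the same as theirs, and that of the Nes, Vim and Plec differences was opposite. Their part in the Dst result was not tested.

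**Figure D4:**
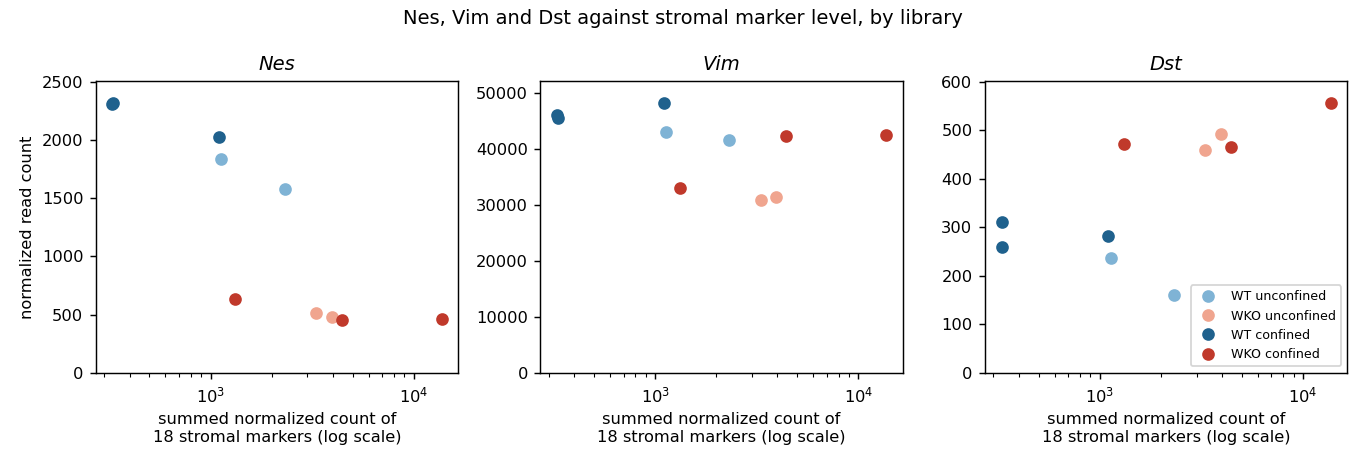
Normalized read count of Nes, Vim and Dst (vertical axes, from 0) against the summed normalized read count of 18 stromal markers (horizontal axes, log scale), 1 point per library, coloured by group. Confined WKO replicate 5 is at the far right with a stromal sum of 13750, Nes is at 1582 or more in WT libraries and at 631 or less in WKO libraries, and confined WKO replicate 2 (sum 1321) lies to the left of unconfined WT replicate 3 (sum 2319).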

How the data were processed

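Polyadenylated RNA of the 10 libraries had been sequenced from 5 ng of total RNA. The submitters' processing notes name FastQC, Trim Galore, STAR and the builds GRCm38 and mm10; the annotation, the strand setting and the counting tool are not given in the sources used here. The values, as deposited by the authors, are a signal: reads per gene after division by a library factor. Dividing each by the value of 1 read gave whole numbers for 100% of them (tolerance 1e-06), and the factors equalled DESeq2 size factors to within 2e-15, so reads could be recovered. GENCODE M21 served for positions, lengths and symbols missing from the table; 4981 identifiers are not in it.

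Members and lists were chosen with earlier results of these data known. Genes with a mean of at least 10 entered limma 3.58.1 (R 4.3.3) on the log2(value + 1) scale, with 1 mean per group, 6 residual degrees of freedom, a mean-variance trend and Benjamini-Hochberg adjustment over 12455 genes. The script was tested on simulated data. Alternatives included edgeR 4.0.16 and DESeq2 1.42.0 on recovered reads. Fold changes on this scale understate low genes. Named genes were all members, listed genes that passed (at most 8 per list and comparison), listed filament genes with a mean of at least 10, the 3 genes most like each member (mean of at least 50) and Was. Other genes named, the marker genes, overlapping genes and genes at or near 0, fall outside that rule. Shared sequence was searched with blastn 2.17.0 at 95% identity over at least 100 bases. No pair of replicate libraries agreed within sampling noise (chi-square per degree of freedom 7.56 to 78.3), and all libraries were kept.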

Additional observations from a re-analysis of the deposited data

Results flagged for a closer look

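Was stood out because its confined libraries lay above the unconfined mean in WT cells and below it in WKO cells. In WT cells the ranges overlapped (1308 and 1639 normalized read counts unconfined, 1570 to 1649 confined), so that no change is shown there. In WKO cells the confined libraries (96.9 to 125) were below both unconfined ones (141 and 154). The response to confinement of WKO cells minus that of WT cells was -0.61 on the log2 scale (95% interval -1.10 to -0.12, unadjusted limma p 0.0191). It did not pass over all genes (limma adjusted p 0.999), and the values in WKO cells are the low level still counted for the knocked-out gene.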

How the results depend on the processing

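The call of Nes between genotypes in confined cells and that of Plec averaged over the genotypes held in every alternative run (24 and 23). The number of members called between genotypes in confined cells was 2 and became 1 without the mean-variance trend, with only the groups compared, with the replicate block and with the block and a GC and length correction together, 4 with library weights, and 1 to 3 on leaving out 1 library. For confinement in WT cells 0 became 1 with DESeq2, only the groups compared, the replicate block, the GC and length correction, both together, or library weights. In WKO cells 0 became 1 with DESeq2, the GC and length correction or library weights. Leaving out 1 library gave 0 to 1 in each genotype. Averaged over the genotypes 1 became 2 with library weights, which added Nes (0.34, limma adjusted p 0.0225). On leaving out 1 library the Macf1 difference between unconfined genotypes, -0.09 as reported, ranged from -0.19 to 0.011, turning positive without WT replicate 1. The cause of these changes was not tested.

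The labels do not say what same-numbered libraries share. The deviations from group means of unconfined WT and WKO replicate 1 had a correlation of 0.033. The other same-numbered pairs had one between -0.11 and 0.076. In a group of 2 libraries the deviations mirror each other, so these correlations cannot decide whether such libraries share a mouse, culture or day. With the replicate block Dst in confined cells was 0.60 (limma adjusted p 0.250), Plec in WT cells 0.77 (limma adjusted p 0.0211) and the interaction still had 0 members called. Plec in WKO cells was 0.48 (limma adjusted p 0.261). Of the 27 partners 1 remained called in confined cells, Flna, and 1 in the averaged comparison, Gas2l3, with Actn1 at -0.47 (limma adjusted p 0.144), Clip2 at -0.45 (0.244), Ahnak at 0.43 (0.210), Camsap2 at 0.26 (0.501), Clip1 at 0.29 (0.391) and Syne3 at 0.50 (0.116). Gas2l3 was 0.76 (0.0775) in WT and 0.67 (0.146) in WKO cells, and Capn2 -0.37 (0.240) and Trim32 -0.50 (0.280) were not called. Over all genes the count called ranged over the alternatives from 4 to 387 (18 as reported) between unconfined and from 53 to 1948 (322) between confined genotypes, from 20 to 455 (144) and from 33 to 1735 (214) with confinement in WT and WKO cells, from 288 to 2220 (773) in their average, and stayed at 0 for the interaction. With 2 or 3 libraries per group, precision is that of the printed 95% intervals.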
